A study of Mus musculus with 7 samples.

Results

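Splenic monocytes of 1 mouse were treated with agonists of the endosomal Toll-like receptors TLR7 and TLR9, and their transcript levels were set against those of the same animal's cells treated with poly I:C. The comparison used 3 of the 7 arrays of the series, all from mouse 1, chosen by their titles: R848 (2 µg/ml), CpG B (2.5 µM) and poly I:C (1 µg/ml), each after 3 h. It was taken as the mean of the R848 and CpG B levels minus the poly I:C level, gene by gene, so that no unstimulated array entered it. The other arrays were 1 unstimulated sample from each of the 2 mice and 1 sample from each mouse treated with HL7G, a monoclonal antiphospholipid antibody, at 400 ng/ml for 3 h. EPCR (the protein C receptor of endothelium) was wild type in every sample. The sources used here do not give the way the monocytes were selected, the strain and age of the mice, or the time for which unstimulated cells were held.

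R848 is a small imidazoquinoline that activates TLR7, and CpG B is a synthetic oligonucleotide with unmethylated CpG motifs that activates TLR9. Both receptors sit in endosomes and signal through the adaptor MyD88, which leads to NF-kB, MAP kinases and IRF5 or IRF7. Poly I:C, a mimic of double-stranded RNA, is sensed by endosomal TLR3, which uses the adaptor TRIF to reach IRF3 and NF-kB, and by cytosolic sensors encoded by Ifih1 and Ddx58 once it enters the cell. The comparison therefore asks where stimulation through MyD88 and stimulation by double-stranded RNA leave different transcript levels. The agonists were given in different amounts and units, at 1 dose each, so the agonist and its dose cannot be told apart.

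Values are log2 RMA levels as deposited, on which a difference of 1 is 2-fold. A gene was tested if it reached a level of 5 on at least 1 of the 7 arrays, which held for 11119 of 22180 genes. Each of the 3 agonists had 1 array, so the standard errors (SE) come from the spread between the 2 mice in the unstimulated and HL7G groups, and the lone arrays were assumed to vary alike. Precision is limited by the number of arrays, and the median SE of a difference was 0.29. Ly6c2 and Ccr2, which mark classical monocytes, stayed below the test level on all 3 arrays (Ly6c2 at 3.88 to 4.06, Ccr2 at 3.81 to 3.99), as did the integrin gene Itgam (4.55 to 4.70). The lysozyme gene Lyz2 read 6.18, 5.60 and 5.60 with R848, CpG B and poly I:C. Genes of the B cell receptor complex also passed the test level, with Cd79b at 6.03, 6.08 and 6.19, so the arrays did not read as classical monocytes alone. The summed linear level of 12 tested B cell markers, of 15 listed, was 1025 with R848, 721 with CpG B and 858 with poly I:C, and that of 13 tested monocyte markers, of 23 listed, was 648, 522 and 584.

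No gene was called between the MyD88 agonists and poly I:C, and the 3 stimulated arrays resembled each other more than any of them resembled the unstimulated sample of the same mouse. In limma with Benjamini-Hochberg adjustment, 0 of 11119 genes (0%) were called in either direction at an adjusted p under 0.05. The smallest adjusted p was 0.9999, and 187 genes had an unadjusted p under 0.05. Across genes, which are not independent replicates, the level on the poly I:C array correlated with that on the R848 array at r = 0.9 and with that on the CpG B array at r = 0.928. R848 and CpG B, which share the adaptor, correlated at r = 0.903, and the 3 arrays correlated with unstimulated mouse 1 at 0.51 (R848), 0.606 (CpG B) and 0.658 (poly I:C). By size alone, 76 genes (0.684%) were at least 2-fold higher with R848 than with poly I:C and 92 (0.827%) at least 2-fold lower. For CpG B against poly I:C these counts were 40 (0.36%) and 28 (0.252%), and for R848 against CpG B they were 89 (0.8%) and 78 (0.702%). The R848 array thus lay about as far from the CpG B array as from the poly I:C array, with an SD of the difference of 0.38 and 0.39. By contrast, 1889, 1252 and 975 genes differed at least 2-fold between the unstimulated cells of mouse 1 and R848, CpG B and poly I:C, in that order, of which 1608, 1138 and 929 were higher with the agonist.

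A difference common to both MyD88 agonists was rare. At least 2-fold higher than poly I:C on both arrays were 5 genes (0.045%), and 5 were at least 2-fold lower on both (0.045%). With no size set, the poly I:C level lay below both agonists in 4218 genes (37.9%) and above both in 2908 (26.2%). This excess of lower poly I:C levels went with the scaling, since centring each array on its median gave 3599 and 3470. Both differences share the poly I:C array, so a reading that is off on that array moves both alike. Genes are therefore described by the order of the 3 arrays, and these shares of all genes are the background for each count.

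**Figure D1:**
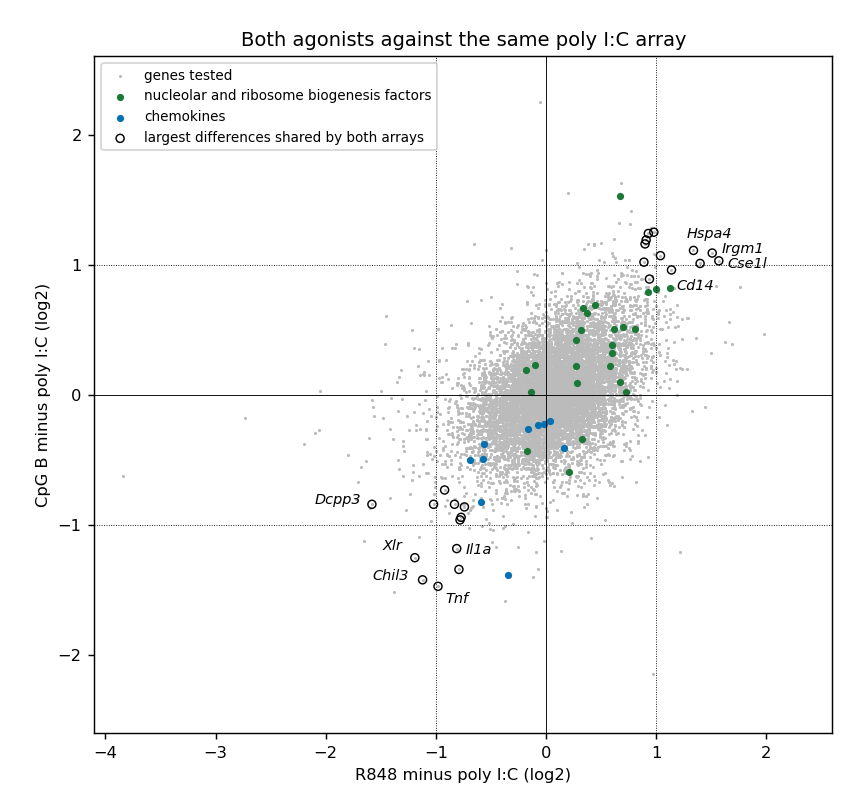
Difference of each tested gene between R848 and poly I:C (horizontal, log2) and between CpG B and poly I:C (vertical, log2), with nucleolar factors in green, chemokines in blue and the genes of largest shared difference circled. Dotted lines mark a 2-fold difference. Few genes lie past 2-fold on both axes (5 at the upper right and 5 at the lower left), nucleolar factors lie mostly in the upper right and chemokines in the lower left.

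Hspa4, Cse1l and Irgm1 were among the 5 genes at least 2-fold higher with both MyD88 agonists than with poly I:C, together with Snhg4 and Wwp2. Hspa4, a heat shock protein that helps HSP70 exchange its nucleotide, read 6.19 with R848, 5.96 with CpG B and 4.85 with poly I:C, a 2.34-fold difference of means (log2 1.23 ± 0.41 SE). Both MyD88 arrays lay well above the poly I:C array, which itself was above the unstimulated arrays at 3.74 and 4.32. Cse1l, the export receptor that returns importin alpha to the cytoplasm, read 5.87, 5.33 and 4.3 in the same order, and its poly I:C level matched the 4.27 of unstimulated mouse 1. Irgm1, an interferon-induced GTPase of autophagy and defence against intracellular microbes, read 6.43, 6.01 and 4.92, a difference of 1.30 ± 0.64 SE. Its 2 HL7G arrays, at 7.2 and 5.41, spread more widely than that difference, and its 95% interval ran from -0.22 to 2.81.

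Cd14 had a small error for its size. It encodes the lipopolysaccharide co-receptor of monocytes, which also carries nucleic acid ligands to endosomal receptors. Its level was 5.48 with R848, 5.3 with CpG B and 4.34 with poly I:C, a difference of 1.05 ± 0.25 SE with a 95% interval of 0.45 to 1.65. The unstimulated arrays read 4.74 and 4.72 and the HL7G arrays 5.15 and 5.11, so poly I:C had the lowest Cd14 level of the 7 arrays and R848 the highest. The unadjusted p of limma was 0.00444, which did not pass the adjustment over all genes.

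Pum2, Wwp2, Snhg4 and 5 others were also among the 12 largest differences in that direction. Pum2, a repressor that binds the untranslated ends of messenger RNAs, read 5.52, 5.79 and 4.54 with R848, CpG B and poly I:C. Wwp2, a ubiquitin ligase, read 5.26, 4.87 and 3.86, with poly I:C lower than both unstimulated arrays (4.64 and 4.18). The snoRNA host transcript Snhg4 stood at 6.69, 6.72 and 5.65, so that poly I:C matched the unstimulated levels of 5.63 and 5.78 while both MyD88 agonists lay about 1 log2 unit higher. The kinase gene Stk11, the heterochromatin gene Cbx1 and the tRNA modification gene Qtrt2 differed by 1.08, 1.05 and 1.03. Closing the group were Trim12a, a TRIM family gene, at 0.95 and H2-Q4, a class I histocompatibility gene, at 0.92 (8.04, 7.98 and 7.09). H2-Q4 has 2 probe sets, and their mean gave a smaller difference of 0.62. Hspa4, Cse1l, Irgm1, Cd14, Pum2, Wwp2 and Cbx1 met the level of 5 required for naming only with MyD88 agonists, not with poly I:C. The filter therefore bore on their place in this group.

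On the other side, the largest shared differences in favour of poly I:C included 2 inflammatory cytokines. Tnf, which encodes tumour necrosis factor, read 6.56 with R848, 6.06 with CpG B and 7.53 with poly I:C. The poly I:C level was 2.34-fold above the mean of the others (log2 difference -1.22 ± 0.43 SE) and close to the HL7G arrays (7.82 and 8.09), while the unstimulated levels were 4.97 in mouse 1 and 5.99 in mouse 2. Il1a, an alarmin cytokine of the IL-1 family, read 4.28, 3.91 and 5.09, a difference of -1 ± 0.29 SE. Of these 3 arrays it met the level of 5 required for naming only with poly I:C, so the filter bore on its place here. For Il1a both MyD88 arrays lay around the unstimulated levels of 4.13 and 4.16, and of these 3 agonists poly I:C alone stood clear of them, with HL7G higher still at 5.77 and 6.17. The interferon-induced Ifit1bl1 read 5.19, 5.18 and 6.02, against 4.97 and 4.26 without stimulation and 7.81 and 6.35 with HL7G.

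In several further genes of this direction the MyD88 arrays lay below the unstimulated levels. Poly I:C stayed near those levels or, for Chil3, above them. Xlr, an X-linked gene of lymphoid cells, read 4.91, 4.85 and 6.1 with R848, CpG B and poly I:C and 6.22 and 5.9 unstimulated. Chil3, a chitinase-like protein of alternatively activated macrophages, read 4.4, 4.1 and 5.52, against 5.06 and 5.13 unstimulated. Dcpp3, a gene of a multicopy secretory family, read 5.11, 5.86 and 6.7 against 6.95 and 7.15. Near-identical copies of Xlr and Dcpp3 may share probes, so these levels are uncertain. Of the 3 arrays compared, Xlr and Chil3 met the level of 5 required for naming only with poly I:C, so the filter bore on their place.

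The remaining genes of that group had differences between -0.80 and -1.06. They were the aldehyde dehydrogenase Aldh3b2 (-0.93), the rhomboid protease gene Rhbdl1 (-1.06), the exon junction complex gene Rbm8a (-0.87), Ctrcos (-0.86), the lectin-like receptor gene Klrb1 (-0.80) and the tRNA phosphotransferase gene Trpt1 (-0.82). For Rhbdl1, Rbm8a, Klrb1 and Trpt1 the poly I:C array was the highest of all 7. Rhbdl1, Klrb1 and Trpt1 reached the test level of 5 on that array alone. They could be tested only because they were high there, so for them this place was fixed by the filter. Rhbdl1 read 5.55 there and 4.21 to 4.76 on the other 6 arrays.

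**Figure D2:**
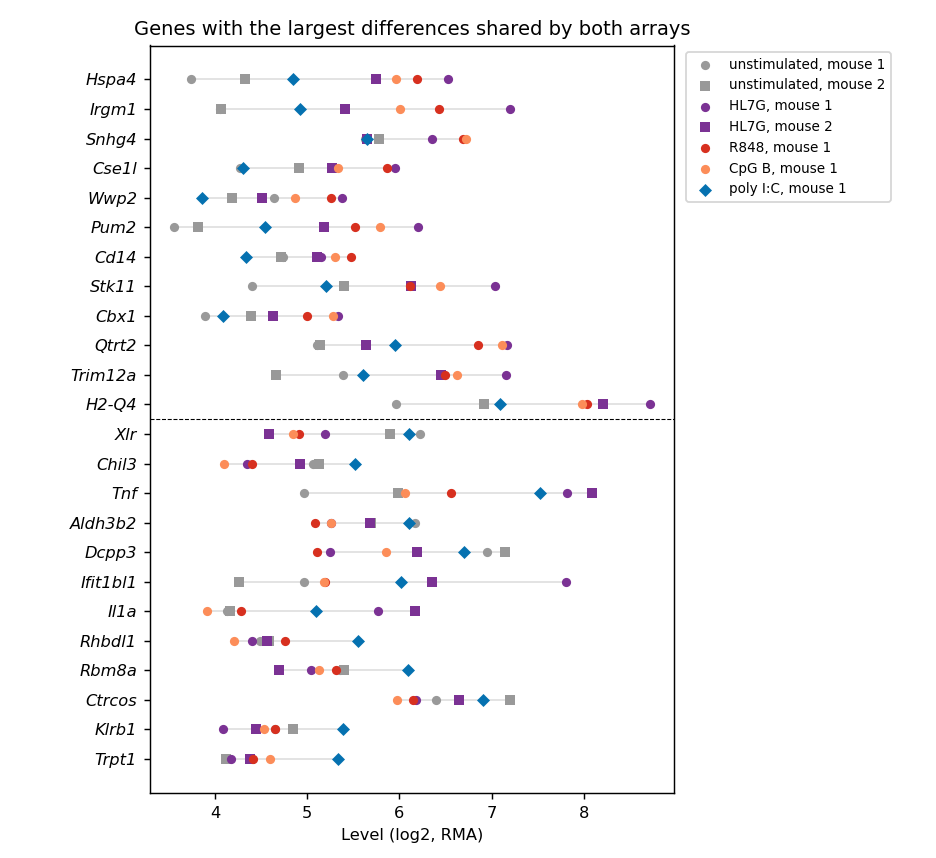
Log2 RMA level of the 12 genes furthest below both MyD88 agonists with poly I:C (above the dashed line) and the 12 furthest above (below it), with 1 symbol per array. Poly I:C (blue diamonds) does not overlap R848 or CpG B in any of them, as the choice of genes requires, and no difference passed the adjustment in limma.

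In most genes of ribosome production the poly I:C array lay below both MyD88 agonists. The nucleolar and ribosome biogenesis list holds proteins that transcribe, cut, modify and assemble ribosomal RNA. Of 26 genes listed, 25 were tested and 0 called, and the poly I:C level lay below both agonists in 19 (76%, against 37.9% of all genes) and above both in 1, the U3 snoRNP gene Rrp9. The median difference was 0.45 for R848 and 0.38 for CpG B, against 0.08 and 0.02 over all genes tested. Other scalings left 18 of 25 below both.

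Gnl3, the nucleolar GTPase nucleostemin, read 7.38 with R848, 8.25 with CpG B and 6.72 with poly I:C, a difference of 1.10 ± 0.67 SE. Pes1 and Bop1, which form a complex needed to mature the large ribosomal subunit, had the same order of arrays. Pes1 read 7.4, 7.09 and 6.27, and Bop1 read 6.72, 6.58 and 5.79. Nop58, a core protein of the snoRNPs that methylate ribosomal RNA, read 7.05, 6.85 and 6.05. Nucleolin, encoded by Ncl, read 8.71, 8.41 and 7.90, and the polymerase I subunit Polr1b read 5.68, 5.57 and 5.06. Gnl3 was the exception in which CpG B lay far above R848; in the others named here the MyD88 arrays differed by at most 0.32.

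For most of these genes poly I:C took a middle place rather than the unstimulated one. In 18 of 25 the order on the mouse 1 arrays was unstimulated, then poly I:C, then both MyD88 agonists (72%, against 19.9% of all genes). That order can occur only in genes above the unstimulated level on all 3 agonist arrays, which held for 24 of the 25. Over all genes 4313 (38.8%) read so and 2209 of these had the order, so part of the contrast lies in the rise itself. The median level over the list was 5.20 and 5.24 in the unstimulated arrays, 6.44 with poly I:C, 6.79 with CpG B and 6.84 with R848, while HL7G gave 7.17 in mouse 1 and 5.88 in mouse 2. The HL7G arrays of the 2 mice thus differed by more than poly I:C differed from the MyD88 agonists, and single genes carried standard errors up to 0.96. Several members, among them Gnl3, Ncl, Nop56 and Nop58, hold snoRNAs in their introns, and where on the transcript a probe set lies was not used here. Of 28 tested genes of structural ribosomal proteins, poly I:C lay below both in 8 (28.6%, against 37.9% of all genes). It lay above both in 5 (17.9%, against 26.2%), and their median difference was 0.02.

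**Figure D3:**
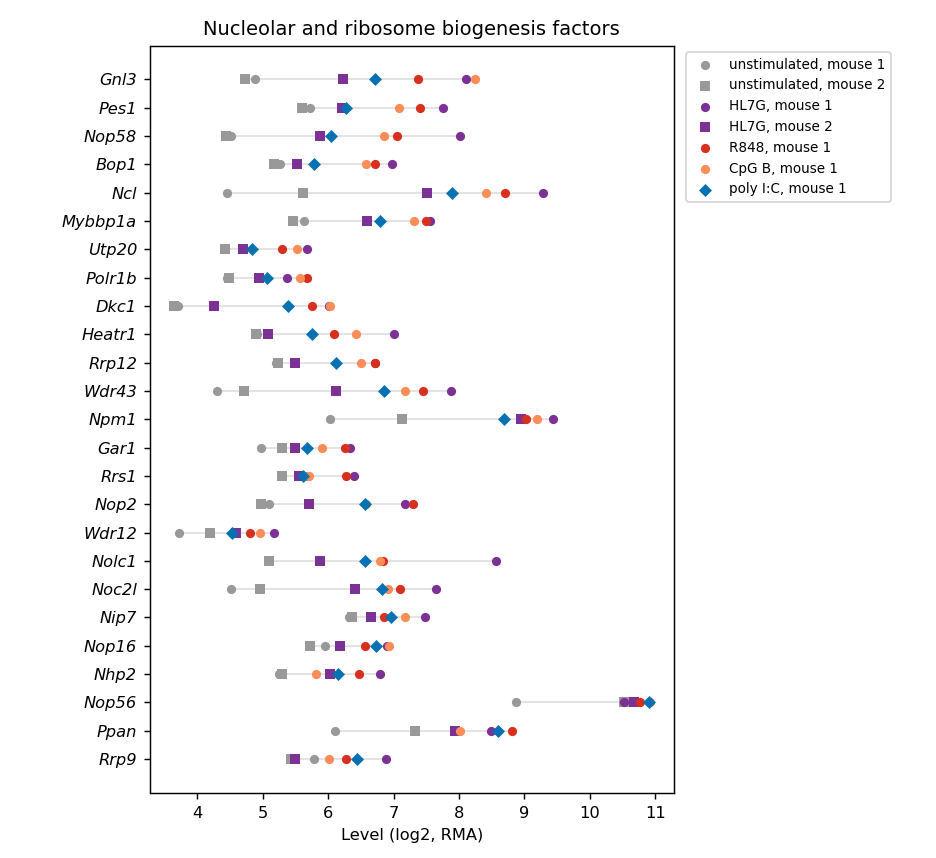
Log2 RMA level of the 25 tested nucleolar and ribosome biogenesis genes, with 1 symbol per array, ordered by the difference between the MyD88 agonists and poly I:C. Poly I:C (blue diamonds) lies below both R848 and CpG B in 19 genes, and in most of these it lies above the unstimulated samples (grey).

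Genes that supply amino acids, nucleotides, polyamines and charged tRNA followed the same order. Of 25 listed, 23 were tested and 0 called. Poly I:C lay below both agonists in 17 (73.9%, against 37.9% of all genes). It lay above both in 1 (4.35%, against 26.2%), the purine synthesis gene Gart. Other scalings left 17 below both and put 3 to 5 above both. Slc7a5 and Slc3a2 encode the chains of the large neutral amino acid transporter. Slc7a5 read 7.02, 6.37 and 5.85 with R848, CpG B and poly I:C, and Slc3a2 read 6.74, 6.74 and 6.09. The mitochondrial folate enzymes Shmt2 (6.76, 6.19 and 5.79) and Mthfd1l (6.50, 6.47 and 5.80) both differed by 0.69. Odc1, the rate-limiting enzyme of polyamine synthesis, read 6.65, 6.86 and 6.08, and here poly I:C equalled the 6.08 of unstimulated mouse 1.

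Chaperones and genes of the endoplasmic reticulum stress response lay the same way. Poly I:C was below both agonists in 10 of 14 tested genes (71.4%, against 37.9% of all genes). It was above both in 1 (7.14%, against 26.2%), the co-chaperone gene Dnajb1. Hsph1, a member of the HSP110 family, read 6.61, 5.51 and 4.95, a difference of 1.11 ± 0.34 SE, with most of it in R848. Hsp90b1, the endoplasmic reticulum chaperone that also folds Toll-like receptors, read 7.15, 7.24 and 6.54, and the mitochondrial chaperonin gene Hspd1 read 6.43, 5.71 and 5.46. Cell cycle genes lay nearer the shares of all genes. Poly I:C was below both in 8 of 16 tested (50%, against 37.9%) and above both in 4 (25%, against 26.2%). The largest differences were those of Cdk6 (6.19, 6.49 and 5.45) and the cyclin gene Ccnd2 (7.59, 7.05 and 6.71). Myc, a transcription factor that drives ribosome production, differed by 0.32 ± 0.55 SE (8.16, 8.38 and 7.95).

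Sterol genes were tested in 11 of 21 cases. Poly I:C lay below both agonists in 8 as deposited (72.7%, against 37.9% of all genes) and above both in 1 (9.09%, against 26.2%). After quantile normalization it lay below both in 4. The largest differences of sterol genes were 0.66 for Sqle and 0.63 for Hmgcs1, enzymes of cholesterol synthesis. Glycolysis genes were spread around 0. Poly I:C lay below both in 4 of 14 (28.6%, against 37.9%) and above both in 3 (21.4%, against 26.2%). Gapdh lay highest in the unstimulated arrays (9.13 and 8.75) and read 7.73, 8.03 and 8.32 with R848, CpG B and poly I:C.

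**Figure D4:**
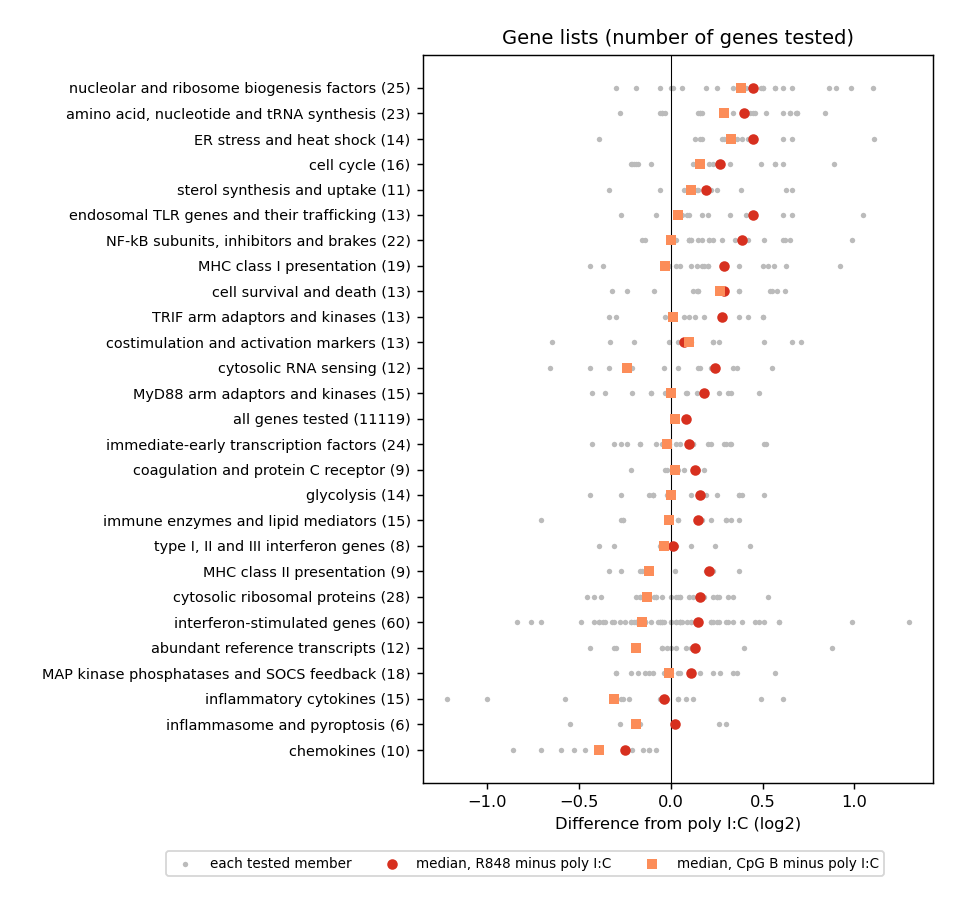
Difference from poly I:C (log2) for 26 gene lists and for all genes tested, with each tested member as a grey point, the median of R848 minus poly I:C as a red circle and the median of CpG B minus poly I:C as an orange square. Medians of the nucleolar, biosynthetic and heat shock lists lie to the right for both agonists, and those of the chemokines to the left (-0.25 and -0.39).

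Chemokines, which draw leukocytes to a site of inflammation, lay the opposite way. Of 22 listed, 10 were tested and 0 called, with poly I:C above both agonists in 8 (80%, against 26.2% of all genes) and below both in 0. The median difference was -0.25 for R848 and -0.39 for CpG B. Ccl4, a chemokine made by activated macrophages, read 7.22 with R848, 6.99 with CpG B and 7.81 with poly I:C, and Ccl5, an attractant of T cells and monocytes, read 7.42, 7.49 and 7.98. Both lay above the unstimulated levels on every agonist array (Ccl4 at 6.1 and 6.15, Ccl5 at 6.28 and 6.71). Cxcl10, an interferon-induced ligand of CXCR3, read 6.57, 5.53 and 6.91, so that most of its difference of -0.86 ± 0.58 SE came from the low CpG B array.

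Ccl2, which recruits monocytes, read 4.77, 4.95 and 5.34, and the neutrophil attractant gene Cxcl2 read 4.49, 4.67 and 5.18. The unstimulated arrays of mouse 1 and mouse 2 read 5.03 and 5.34 for Ccl2 and 4.63 and 5.27 for Cxcl2, so R848 lay below both of them in both genes and poly I:C above that of mouse 1. Ccl3 read 7.74, 7.58 and 7.81, against 4.74 and 6.41 without stimulation. The 12 other listed chemokines, Cxcl1, Cxcl9 and Cxcl11 among them, did not reach the test level on any array.

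Cytokines other than Tnf and Il1a showed smaller differences. Of 15 tested among 23 listed, poly I:C lay above both agonists in 7 (46.7%, against 26.2% of all genes). It lay below both in 2 (13.3%, against 37.9%), Tgfb1 (6.36, 5.89 and 5.52) and Ebi3 (5.61, 5.55 and 5.09). Il1b, the inflammasome-processed partner of Il1a, read 6.77, 6.34 and 7.14, a difference of -0.58 ± 0.59 SE. Il6 read 4.32 with R848, 3.5 with CpG B and 4.17 with poly I:C, so poly I:C lay between the MyD88 agonists. Il12b likewise split them, at 5.64, 4.95 and 5.26. The Il6 levels on the 3 arrays lay below the test level, which Il6 reached only with HL7G in mouse 1 (5.03). Il10 stayed below the test level, at 3.99 to 4.39 on the 3 arrays. Acod1, whose enzyme makes itaconate in activated macrophages, read 5.91, 4.99 and 6.16, and Ptgs2, the inducible cyclooxygenase, read 4.34, 3.83 and 4.35. Ptgs2 lay below the test level on these 3 arrays and reached it only with HL7G in mouse 2 (5.65).

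**Figure D5:**
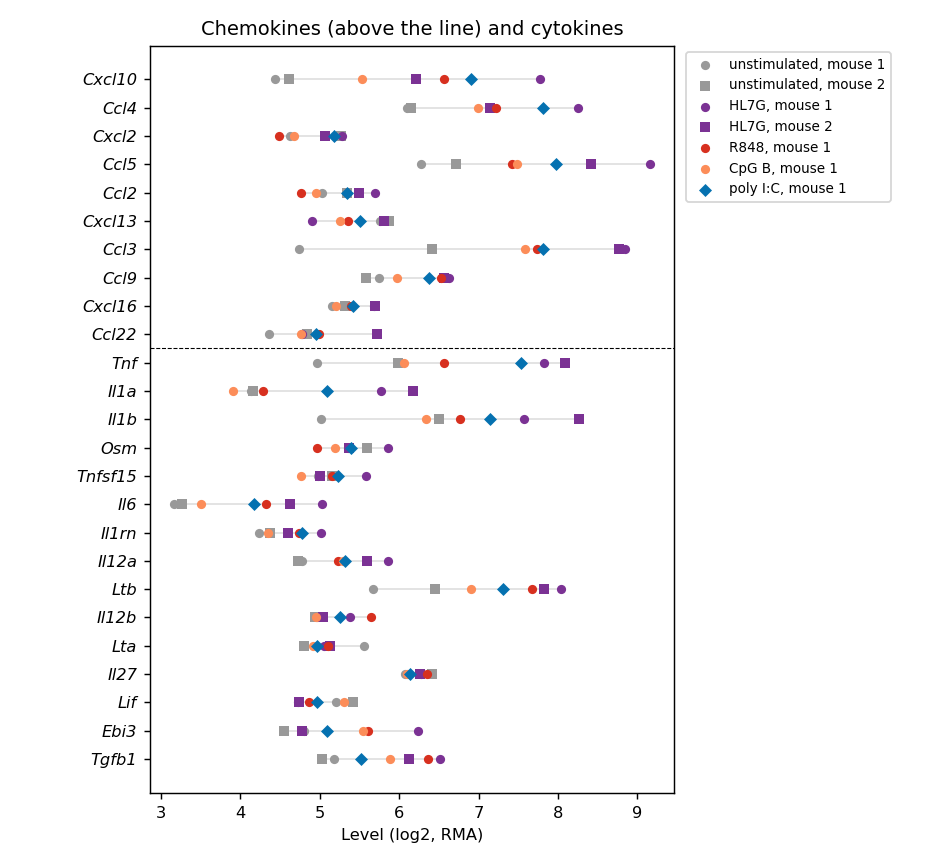
Log2 RMA level of the 10 tested chemokines (above the dashed line) and 15 tested cytokines (below it), with 1 symbol per array, each set ordered by the difference between the MyD88 agonists and poly I:C. Poly I:C (blue diamonds) lies above both R848 and CpG B for Tnf, Il1a, Il1b and 8 chemokines, and HL7G (purple) lies higher than poly I:C for Tnf and Il1a in both mice.

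Subunits, inhibitors and brakes of NF-kB had poly I:C above both agonists in 0 of 22 tested genes, against 26.2% of all genes. It lay below both in 11 (50%, against 37.9%). The median was 0.39 for R848 but 0.00 for CpG B, so the list stood apart from 0 with R848 only, and 1 to 3 genes had poly I:C above both under other scalings. Zc3h12c, an RNase-domain protein related to Regnase-1, read 6.31, 6.97 and 5.65, a difference of 0.99 ± 0.59 SE. Nfkbiz, an inducible nuclear IkB protein, read 7.95, 8.17 and 7.41, and its relative Nfkbid read 6.89, 6.95 and 6.30. Birc3, a ubiquitin ligase of the TNF receptor complex, read 6.22, 6.09 and 5.54. The subunits Rel and Rela differed by 0.10 each, and the ubiquitin-editing brake Tnfaip3 (7.2, 7.2 and 6.98) by 0.21.

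Interferon-stimulated genes had equal counts each way in the deposited values, while over all genes poly I:C lay more often below both. Of 71 listed, 60 were tested and 0 called, with a median difference of 0.00. Poly I:C lay below both agonists in 17 (28.3%, against 37.9% of all genes) and above both in 17 (28.3%, against 26.2%). Other scalings moved this split to 13 or 14 below and 21 to 23 above. Their level was raised on all 3 arrays: 57 of 60 read higher with each of R848, CpG B and poly I:C than in unstimulated mouse 1, against 38.8% of all genes. Ifit1, which binds viral RNA, read 7.67, 7.29 and 7.79 against 5.33 and 5.2 unstimulated, and Isg15, a ubiquitin-like modifier, read 5.51, 5.23 and 5.73 against 4.28 and 3.58. Irf7, the transcription factor that amplifies interferon production, read 6.69, 6.61 and 6.85 against 5.16 and 5.37.

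The MyD88 agonists also differed from each other in this list. R848 lay above CpG B in 48 of 60 genes (80%, against 56.1% of all genes), and the list's median difference between them was 0.30. That order was no feature of this list alone, since R848 was above CpG B in 83.3% of the abundant reference transcripts and 89.5% of the class I presentation genes. Poly I:C lay below R848 in 39 of the 60, against 58.8% of all genes, and below CpG B in 21, against 53%. Bst2, the tethering factor tetherin, read 6.12 with R848, 4.8 with CpG B and 5.43 with poly I:C, and Ifi205 read 5.85, 4.58 and 5.92. B cell markers and monocyte markers had the same order of arrays in their summed level, with R848 highest and CpG B lowest, and the part of cell composition in these differences was not tested. Genes at the ends of the list were Irgm1 and Ms4a4c, a membrane protein gene, on the side of the MyD88 agonists (Ms4a4c at 7.09, 6.75 and 5.93), and Ifit1bl1 and the nucleotide kinase gene Cmpk2 on the side of poly I:C (Cmpk2 at 6.44, 5.88 and 6.91).

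Promoter sequence is shown for Irgm1, Ifit1bl1 and Cxcl10. In these interferon-induced genes poly I:C lay below both MyD88 agonists (Irgm1) or above both (Ifit1bl1 and Cxcl10). The sequences are the last 220 bases before the start site in RefSeq (GRCm38.p6), all on the minus strand, at chr11:48871421-48871640, chr19:34601969-34602188 and chr5:92348890-92349109 in that order. Capitals mark matches on either strand to the interferon-stimulated response element and to the NF-kB consensus.
Irgm1: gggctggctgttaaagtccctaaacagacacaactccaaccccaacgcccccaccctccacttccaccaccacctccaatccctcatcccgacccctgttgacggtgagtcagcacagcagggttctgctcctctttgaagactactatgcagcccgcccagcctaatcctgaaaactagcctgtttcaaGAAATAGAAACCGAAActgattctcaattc
Ifit1bl1: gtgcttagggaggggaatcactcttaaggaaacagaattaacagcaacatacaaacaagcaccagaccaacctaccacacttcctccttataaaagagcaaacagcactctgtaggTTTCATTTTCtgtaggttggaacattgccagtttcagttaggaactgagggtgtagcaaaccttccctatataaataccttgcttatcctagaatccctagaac
Cxcl10: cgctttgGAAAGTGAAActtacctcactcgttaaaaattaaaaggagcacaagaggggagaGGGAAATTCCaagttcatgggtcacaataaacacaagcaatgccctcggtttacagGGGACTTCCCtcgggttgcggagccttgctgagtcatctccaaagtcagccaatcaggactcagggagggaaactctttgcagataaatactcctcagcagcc
Irgm1 has 2 matches to the response element, which overlap in the run of capitals near its start site. Ifit1bl1 has 1, read on the opposite strand, and is listed by RefSeq with 2 start sites, of which the first listed was used. Cxcl10 has 1 response element match, the first capitals, followed by 2 NF-kB matches. The same element thus lay before a gene that was higher with both MyD88 agonists and before genes that were higher with poly I:C.

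A promoter window was found for 8578 tested genes, and 250 bases before the start site were searched in each. The response element was in 52.2% of the windows of the interferon-stimulated genes (24 of 46), against 2.76% of all windows. The NF-kB consensus was in 3 of 6 chemokine windows (50%) and 3 of 13 cytokine windows (23.1%), against 4.64% of all. The E-box CACGTG, the site bound by Myc, was in 1 of 21 nucleolar windows (4.76%) and 4 of 19 biosynthetic windows (21.1%), against 8.17% of all. A match describes the letters only and is no evidence of binding.

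For the receptors Tlr7 and Tlr9, both adaptors and the RNA sensors Ifih1 and Ddx58, poly I:C lay between the MyD88 agonists or within 0.1 of one of them. Tlr7, the R848 receptor, read 4.08, 4.1 and 4.18 with R848, CpG B and poly I:C, and Tlr9, the CpG receptor, read 6.3, 5.95 and 6.03. Tlr7 lay below the test level on these 3 arrays and was tested only through HL7G in mouse 1 (5.57). Tlr3, the poly I:C receptor, and Tlr8 stayed below the test level on all 7 arrays, with Tlr3 at 3.49 to 3.63 on these 3. Myd88 read 5.67, 4.88 and 5.71, and Ticam1, which encodes TRIF, read 5.48, 4.9 and 4.91, so for neither adaptor did poly I:C stand apart from both MyD88 agonists by more than 0.04. Among the cytosolic sensors of double-stranded RNA, Ifih1 read 6.39, 5.26 and 6.16 and Ddx58 read 6.81, 5.91 and 6.8, with poly I:C close to R848 and CpG B lower. Sting1, the cyclic dinucleotide receptor, was the 1 tested gene of that list with poly I:C above both in the deposited values, at 4.52, 4.45 and 5.15, and other scalings gave 2 or 3 such genes.

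Ifnb1, the interferon beta gene, read 2.93, 3.2 and 3.25 and was below the test level on every array. Of 21 listed interferon genes 8 were tested, and 0 of these read higher on all 3 agonist arrays than in unstimulated mouse 1, against 38.8% of all genes. The endosomal protease genes Ctss (7.18, 7.13 and 6.55) and Ctsb (6.18, 5.93 and 5.64) and the chaperone gene Hsp90b1, which serve maturation of endosomal receptors, lay higher with both MyD88 agonists, whereas the protease gene Ctsl (5.2, 4.89 and 5.32) was highest with poly I:C. Over the list of endosomal receptor and trafficking genes poly I:C was below both in 7 of 13 tested (53.8%, against 37.9% of all genes). It lay above both in 2 (15.4%, against 26.2%).

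Surface molecules and antigen presentation gave mixed values. Cd69, an early activation marker, read 7.41, 6.29 and 7.49, with 3.95 and 3.62 in the unstimulated arrays, and Cd40, the costimulatory receptor, read 7.32, 6.86 and 6.86. Cd44, an adhesion receptor, read 5.28, 5.55 and 4.7, and Il2ra, the alpha chain of the IL-2 receptor, read 6.19, 6.4 and 5.63. Class I presentation genes had poly I:C below both in 9 of 19 tested (47.4%, against 37.9% of all genes), while B2m differed by -0.02. H2-Q4, on its brightest probe set, and Pdia3 (6.19, 5.89 and 5.41) had the largest differences. Of 9 tested class II genes poly I:C lay above both in 4 (44.4%, against 26.2% of all genes). It lay below both in 1 (11.1%, against 37.9%). H2-Aa, in which poly I:C lay between the MyD88 agonists, read 7.15, 5.94 and 6.31. Among genes of cell survival and death poly I:C was below both in 8 of 13 (61.5%, against 37.9% of all genes). It was above both in 3 (23.1%, against 26.2%). The 8 included the apoptosis inhibitors Mcl1 (7.77, 7.59 and 7.06) and Bcl2l1 (5.81, 6.09 and 5.41) as well as the pro-apoptotic Bcl2l11 (4.91, 5.22 and 4.48) and Bbc3. The inhibitor gene Bcl2a1a (6.18, 5.83 and 6.32), Bid and Bad had poly I:C above both.

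Genes of coagulation, which bear on the wild-type EPCR background, differed by -0.22 to 0.18. Procr, which encodes EPCR, read 5.23, 4.94 and 4.96 with R848, CpG B and poly I:C, and F3, the tissue factor gene, read 5.09, 4.78 and 4.97. Immediate-early transcription factors had poly I:C below both in 11 of 24 as deposited (45.8%, against 37.9% of all genes). They had it above both in 6 (25%, against 26.2%). After quantile normalization these counts were 6 and 10. MyD88 arm kinases and adaptors had, as deposited, 7 and 4 of 15 (46.7% and 26.7%, against 37.9% and 26.2% of all genes). Nr4a2 had the largest immediate-early difference (4.79, 4.91 and 4.33), and Nos2, the inducible nitric oxide synthase, differed by -0.01. Cx3cr1, a receptor of patrolling monocytes, read 5.13 with R848, 5.4 with CpG B and 6.04 with poly I:C. The poly I:C level equalled the unstimulated mouse 1 level of 6.05 within 0.01. Differences of the 13 tested monocyte markers ran from -0.78 for Cx3cr1 to 1.05 for Cd14, with a median of 0.07. Poly I:C lay below both in 4 of them (30.8%, against 37.9%) and above both in 5 (38.5%, against 26.2%).

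The HL7G and unstimulated arrays allow a comparison that shares no array with this difference. Across the 11119 genes tested, the difference between the MyD88 agonists and poly I:C correlated with HL7G minus unstimulated at r = 0.311 in mouse 2 (Spearman's rho 0.321) and r = 0.331 in mouse 1 (rho 0.34). These are descriptions across genes, which are not independent replicates. Irgm1 and most nucleolar genes read higher with HL7G than unstimulated and higher with the MyD88 agonists than with poly I:C. Tnf and Il1a, which also read higher with HL7G, went the other way, with poly I:C above both MyD88 agonists.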

How the data were processed

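RNA of mouse spleen monocytes was hybridised to 7 Affymetrix Mouse Gene 2.0 ST arrays. The authors deposited log2 expression levels in a table with 1 column for each array, made, per the submitters' processing notes, with RMA, Affymetrix Expression Console and Transcriptome Analysis Console. Tool versions and the build of the array design were not given in the sources used. Array medians lay between 4.4 and 4.54 over 41345 probe sets, and scanner files were not analysed here.

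Probe sets were named through GEO's platform annotation: 23521 had 1 symbol, 1814 had several and 16010 had none. Entrez identifiers of 23328 were found in RefSeq (GRCm38.p6), which changed 0 symbols. For the 1082 genes with several probe sets the brightest on average was used.

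All 7 arrays entered 1 fit of 5 groups in limma 3.58.1 (R 4.3.3) with 2-sided moderated tests. It had 2 residual and 4.94 prior degrees of freedom, with Benjamini-Hochberg adjustment over 11119 genes. The fit was checked on simulated data. The planted differences were larger than any mean difference of the tested genes, so calls at smaller sizes were not checked. The number of arrays limits the precision. Errors measure the spread between 2 mice.

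Genes were named by size (the 12 largest differences each way, ranked by the lesser of the R848 and CpG B differences, with a level of at least 5 on 1 of the 3 arrays and leaving out vomeronasal and olfactory receptors, antigen receptor segments, small RNAs and predicted loci), by list (up to 4 members with the largest difference) or as preset genes of the pathways, and other list members were named after their values were seen. The comparison and the 26 pathway and 13 cell type lists were chosen with earlier results of these data known. No list was tested as a set. Same-numbered arrays came from the same mouse, per the labels, so the numbers pair the samples. The deviations of mouse 2 from mouse 1 had r = -0.146 between the unstimulated and HL7G groups. The alternatives varied the filter, scaling, probe set rule, arrays, mouse block, variance prior and fold.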

Additional observations from a re-analysis of the deposited data

How the results depend on the processing

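In limma 0 genes were called under all 16 alternatives, with 7 to 585 genes at an unadjusted p under 0.05. With the mouse as a replicate block, which pairs the arrays of each animal, 0 genes were called and 118 had an unadjusted p under 0.05. The replicate block changed no other call. The smallest adjusted p was 0.7317, for R848 alone against poly I:C.

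The 5 genes 2-fold higher and 5 lower on both arrays depended on the settings. A mean level of at least 6 left 1 and 0, median centring left 3 higher, cyclic loess left 3 higher, and quantile normalization gave 10 and 9. A fold of 1.5 gave 188 and 69, and a fold of 4 gave 0 and 0. Leaving out R848 or CpG B gave 40 to 76 higher and 28 to 92 lower, since then only 1 array must pass.

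Of 2058 values of 134 tested named genes under these alternatives, 2036 kept their direction and 22 in 16 genes reversed. Il12b read -0.01 with median centring, -0.03 with quantile normalization and -0.00416 with cyclic loess, Ifnl2 -0.02 and Tlr9 -0.03 with quantile normalization, and Jund 0.1 and Rplp0 0.03 with the mean of all probe sets. Leaving out R848 or CpG B gave 2 values on opposite sides of 0, reversed without R848 for Il12b (-0.31 to 0.38), Ifnl2 (-0.11 to 0.32), Tlr9 (-0.08 to 0.27), H2-Eb1 (-0.03 to 0.77), H2-Aa (-0.37 to 0.84), F2r (-0.46 to 0.02), F10 (-0.19 to 0.49), Procr (-0.02 to 0.27), Ticam1 (-0.01 to 0.58) and Nos2 (-0.25 to 0.22), and without CpG B for Jund (-0.87 to 0.0022), Ddx58 (-0.89 to 0.01), Il6 (-0.67 to 0.15), F3 (-0.19 to 0.13) and Ifih1 (-0.9 to 0.23). The cause was not tested. Array medians lay between 4.4 and 4.54, and many named differences include a level below 5.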

Other observations

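A few small RNAs, picked after their values were seen, read higher with poly I:C. How many small RNAs lay each way is not given here, so they do not stand for their class. Snord11, a box C/D small nucleolar RNA, read 7.79 with R848, 7.76 with CpG B and 8.67 with poly I:C, against 5.68 and 6.6 unstimulated and 8.77 and 9.12 with HL7G. Its difference of -0.89 ± 0.41 SE is opposite in sign to that of Nop58 (0.90), a protein that binds this class of RNA. Rny1, a Y RNA bound by the Ro protein, read 7.66, 7.47 and 8.35, against 3.78 and 4.93 unstimulated. Vaultrc5, a vault RNA, read 3.68, 3.74 and 4.83 and was 1 of the 5 genes at least 2-fold lower with both MyD88 agonists. It lay below the test level of 5 on these 3 arrays and was tested only through HL7G in mouse 1 (5.14). None of these passed the adjustment in limma.

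Predicted loci were left out of the naming by size, and 2 of them were among those 5 genes. Gm2046 read 3.83, 4.36 and 5.48 with R848, CpG B and poly I:C, and 6.14 and 6.03 unstimulated. Gm38418 read 4.84, 4.7 and 6.22, and 6.86 and 6.85 unstimulated. In both, poly I:C lay between the MyD88 agonists and the unstimulated arrays, and HL7G (4.57 and 4.38 for Gm2046, 5.16 and 4.81 for Gm38418) was close to the MyD88 agonists.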
